A study of Mus musculus with 9 samples.

Results

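RAW 264.7 cells under lipopolysaccharide (LPS) were compared with and without H-CDs across all genes of sufficient expression. RAW 264.7 is a mouse macrophage line derived from ascites, and the labels give its genotype as wild type (WT). The 3 LPS libraries came from cells given LPS at 1 µg/ml, and the 3 LPS + H-CDs libraries from cells that also received 400 µg/ml of H-CDs. Exposure lasted 6 h, according to the design text of the series. The labels do not spell out the abbreviation H-CDs; the series title speaks of a superoxide dismutase nanozyme obtained from fruit. A further 3 libraries of untreated cells entered the fit only to share the estimate of the spread. Genes were kept if they reached 1 FPKM (fragments per kilobase of gene, scaled to library size) in at least 3 of the 9 libraries, which held for 11707 of 54532 genes. In what follows, "with H-CDs" stands for LPS + H-CDs and "LPS alone" for LPS without H-CDs, and 3 values in a row are replicates 1, 2 and 3.

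LPS is a component of the outer membrane of Gram-negative bacteria. It binds Toll-like receptor 4 and switches on NF-kB and MAP kinase signalling, which drive cytokine genes, and an interferon beta loop, which drives antiviral genes. Reactive or electrophilic compounds act on another pathway: they release the transcription factor NRF2 from its inhibitor KEAP1, and NRF2 then raises genes for glutathione, thioredoxin, NADPH and heme breakdown. Shortage of amino acids, heme stress or unfolded proteins raise the factor ATF4, which drives genes for amino acid synthesis and import. Each of these pathways can be read in macrophages from the messenger RNAs of its target genes.

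Depth lay between 14377161 and 16069968 recovered reads in each library. Labels do not state whether replicates were grown as separate cultures, so the spread behind each p-value may be technical. LPS + H-CDs replicate 1 lay apart from replicates 2 and 3: the SD over genes of its log2 difference from them was 0.345 and 0.363, against 0.286 between those replicates and 0.270 to 0.296 among the LPS libraries. Its reads from the 13 mitochondrially encoded messenger RNAs made up 0.49% of the library, against 1.452 to 1.642% in the other 5. Every count over a gene list was therefore also made without that library; where a list has no second count, the numbers called higher and lower were the same. Of 10 macrophage markers 9 reached 1 FPKM, and Mertk had 1 read in the 6 libraries. Their summed level was 3731 to 4108 FPKM with LPS alone and 2981 to 3117 with H-CDs, while each summed list of markers for T cells, B cells, neutrophils, fibroblasts, endothelial, epithelial, mast and red cells stayed at or below 1.36 FPKM. The fall of the sum was not shared by every marker: Csf1r, the receptor for macrophage growth factor, measured 196, 192 and 197 FPKM with LPS alone and 228, 222 and 229.7 FPKM with H-CDs and was called higher (log2 fold change 0.22 ± 0.057 (SE), adjusted p = 0.0321). In bulk libraries, fewer cells with a messenger RNA and less of it per cell cannot be told apart.

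With H-CDs, most tested genes of heme and iron handling and of glutathione and cystine handling rose, Hmox1 by 24.1-fold. Most tested cytokine, chemokine and antiviral genes fell, Ccl17 by 6.55-fold. At an adjusted p under 0.05 in limma, 1826 genes were called (15.6% of those tested), 766 higher with H-CDs (6.54%) and 1060 lower (9.05%). At least 2-fold changes on the log2(FPKM + 1) scale were found for 55 genes in the upward direction (0.47%) and 79 in the downward direction (0.675%). The ranges of the groups, 3 libraries each, did not overlap for 36.8% of the tested genes. The balance of directions depended on how libraries were scaled: 41.9% of calls were higher as deposited, 55.9% when values were rescaled to TPM, which gives each library the same total (875 higher, 690 lower) and 63.4% when scaled to total reads (1194 higher, 689 lower). These scalings moved the median log2 fold change over all genes from -0.01 to 0.025 and 0.057. Most calls were small on the log2(FPKM + 1) scale, which understates changes of genes near 0. On that scale 1334 of the 1826 were under 1.5-fold, and the median size was 0.44.

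Without LPS + H-CDs replicate 1, 1498 genes were called (12.8%), 609 higher (5.2%) and 889 lower (7.59%). With at least 2-fold change there were 61 (0.521%) and 75 (0.641%). A total of 1326 genes were called both with and without it, 546 higher and 780 lower, and no called gene turned its sign. A further 500 were called with all libraries but not without it, and 172 the other way round.

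**Figure D1:**
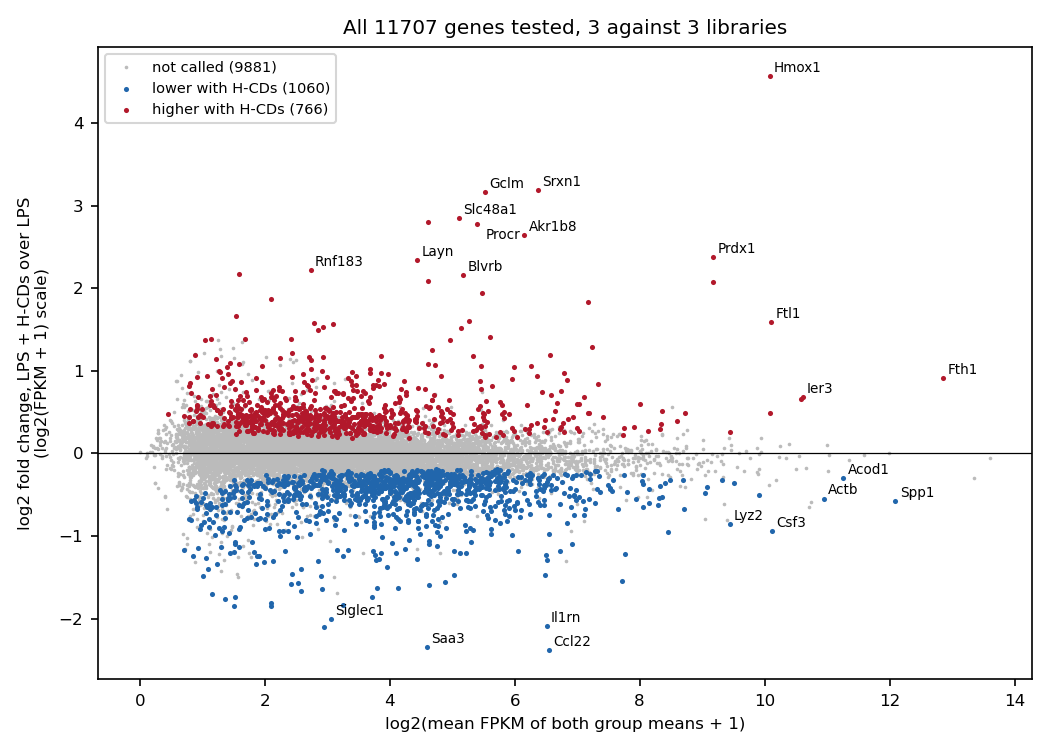
Log2 fold change with H-CDs (vertical axis) against log2 of the mean FPKM of both groups plus 1 (horizontal axis), 1 point per gene for 11707 genes, with 3 libraries per group. Red points are the 766 genes called higher, blue the 1060 called lower and grey those not called; Hmox1 stands highest at 4.57, and Ccl22 lowest among the labelled genes at -2.38.

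Genes of heme breakdown and iron handling mostly rose. Of 13 tested, 8 were called higher and the other 5 were not called, with a median log2 fold change of 0.91, against -0.01 over all genes. The enzyme heme oxygenase 1, which opens the heme ring and frees its iron, is encoded by Hmox1 (chromosome 8, 75093621 to 75100589, GRCm38). Hmox1 measured 86.6, 89.1 and 82.6 FPKM with LPS alone and 2029, 2058 and 2135 FPKM with H-CDs. The groups lay far apart and replicates agreed closely, and untreated cells had a mean of 73.6 FPKM (log2 fold change 4.57 ± 0.072 (SE), adjusted p = 2.51e-09). Slc48a1 (chromosome 15, 97778520 to 97792692), whose product carries heme out of endosomes and lysosomes, measured 7.52, 7.68 and 6.75 FPKM with LPS alone and 47.8, 65.8 and 64.9 FPKM with H-CDs. Replicate 1 was the lowest of the H-CDs libraries and still lay far above LPS alone (log2 fold change 2.85 ± 0.12 (SE), adjusted p = 1.46e-06). Blvrb, a biliverdin reductase gene, measured 11.4, 12 and 12.9 FPKM with LPS alone and 68.1, 55.6 and 50.7 FPKM with H-CDs, with replicate 1 highest (log2 fold change 2.16 ± 0.13 (SE), adjusted p = 1.57e-05). The other biliverdin reductase gene, Blvra, was not called. It measured 34.2, 33.9 and 37.1 FPKM with LPS alone and 30.3, 30.9 and 27.7 FPKM with H-CDs (log2 fold change -0.24 ± 0.078 (SE), adjusted p = 0.0739).

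Iron storage and export genes moved in the same direction as the called genes of heme breakdown. Both ferritin chains, which hold iron in a protein shell, were higher: Ftl1, the light chain, measured 546, 549 and 552 FPKM with LPS alone and 1736, 1589 and 1649 FPKM with H-CDs (log2 fold change 1.59 ± 0.13 (SE), adjusted p = 0.000106). The heavy chain gene Fth1, among the most abundant messenger RNAs of these cells, measured 5074, 5190.3 and 5187 FPKM with LPS alone and 10240.0, 9664 and 9218 FPKM with H-CDs (log2 fold change 0.91 ± 0.099 (SE), adjusted p = 0.000415). The groups did not overlap for either chain, and the ferritin genes share reads with many pseudogene copies, so the split among copies is uncertain; Ftl1-ps1, annotated as protein-coding, went from 17.9 ± 1.48 to 56.7 ± 9.05 FPKM (SD, n = 3 here and below). Slc40a1, encoding ferroportin, the iron exporter, measured 0.125, 0.0491 and 0.111 FPKM with LPS alone and 4.21, 4.0 and 3.62 FPKM with H-CDs: it was barely detected in LPS alone and present in every H-CDs library (log2 fold change 2.17 ± 0.11 (SE), adjusted p = 4.03e-06). This gene reached 1 FPKM only in the H-CDs libraries and was tested only because it was high there, so its call is not independent of that filter. Slc11a1, a metal transporter of the phagosome, went from 16.4 ± 0.527 to 44 ± 3.12 FPKM. The transferrin receptor gene Tfrc and the iron regulatory genes Ireb2 and Aco1 were among the 5 that were not called.

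The list of glutathione and cystine supply genes showed the same pattern, with 8 of 11 tested called higher, the other 3 not called and a median of 0.90. It covers more than synthesis: the 8 include the exporter genes Abcc1 and Abcc4. They also include Chac1, whose enzyme breaks glutathione down, from 25.9 ± 1.22 to 36.4 ± 1.44 FPKM. Gclm (chromosome 3, 122245557 to 122270732), the regulatory subunit of the ligase that makes the glutathione precursor, measured 8.55, 7.95 and 8.3 FPKM with LPS alone and 78.9, 85 and 82.9 FPKM with H-CDs (log2 fold change 3.17 ± 0.075 (SE), adjusted p = 3.17e-08). All 3 libraries with H-CDs lay within a narrow band, 9.95-fold above LPS alone in the mean. Its catalytic partner Gclc rose less, at 13.6, 15.5 and 15.3 FPKM with LPS alone and 31, 33.8 and 32.3 FPKM with H-CDs (log2 fold change 1.08 ± 0.065 (SE), adjusted p = 1.38e-05). Slc7a11, the cystine importer that supplies the pathway, measured 18.4, 17.9 and 15.7 FPKM with LPS alone and 61.8, 74 and 73.1 FPKM with H-CDs, the groups again far apart (log2 fold change 1.94 ± 0.095 (SE), adjusted p = 4.03e-06). Gsr, which regenerates reduced glutathione, went from 42.4 ± 2.05 to 80.4 ± 6.22 FPKM, and Abcc1, an exporter of glutathione conjugates, from 27.4 ± 1.17 to 58.3 ± 2.39 FPKM. Gss, the enzyme of the last step, was not called.

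In the thioredoxin and peroxiredoxin system the changes were concentrated in a few genes: 6 of 15 were higher and 1 lower, with 5 and 1 without LPS + H-CDs replicate 1 and a median of only 0.089. Srxn1 (chromosome 2, 152105516 to 152111376), sulfiredoxin, which reduces overoxidised peroxiredoxins, measured 15.6, 14.9 and 15.6 FPKM with LPS alone and 148, 145 and 152 FPKM with H-CDs (log2 fold change 3.19 ± 0.065 (SE), adjusted p = 1.17e-08). Prdx1 (chromosome 4, 116685544 to 116700822), an abundant cytosolic peroxiredoxin, measured 189.7, 177 and 189.7 FPKM with LPS alone and 895, 1060.0 and 961 FPKM with H-CDs, without overlap between the groups (log2 fold change 2.38 ± 0.097 (SE), adjusted p = 1.39e-06). Txnrd1, the cytosolic thioredoxin reductase, rose 2.47-fold, from 86.8 ± 1.7 to 214 ± 12.1 FPKM. Prdx5, a peroxiredoxin of mitochondria and peroxisomes, was the gene that fell, from 186 ± 18.3 to 123 ± 22.9 FPKM (log2 fold change -0.60). The mitochondrial members Txn2, Txnrd2 and Prdx3 were not called.

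**Figure D2:**
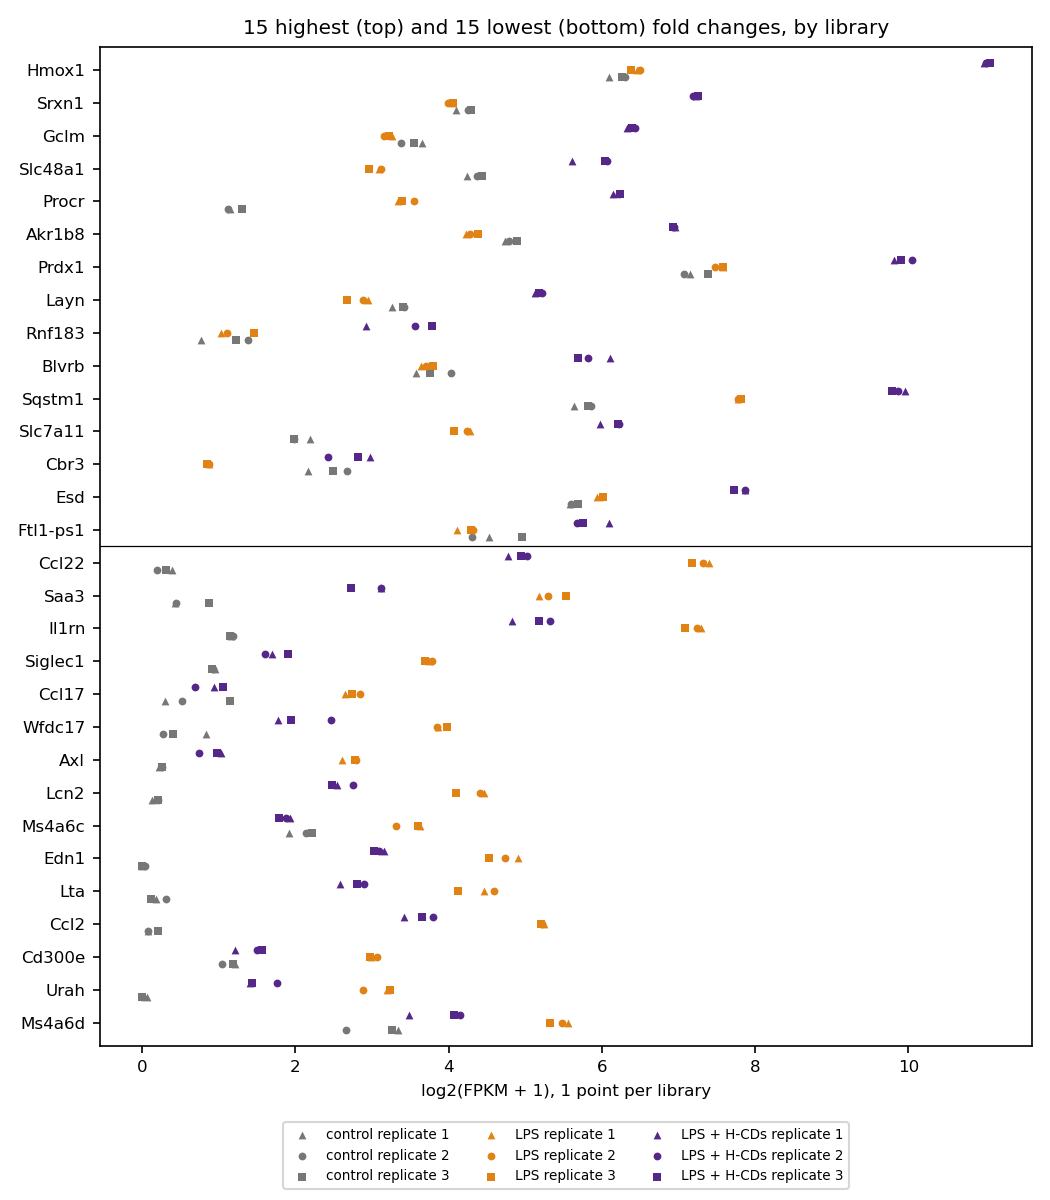
Log2(FPKM + 1) of the 15 called protein-coding genes with the highest (top) and the 15 with the lowest (bottom) fold change that passed the naming rule, 1 point per library, for control, LPS and LPS + H-CDs. For each gene the 3 purple points (LPS + H-CDs) lie apart from the 3 orange points (LPS), which the rule required; in 14 of the 15 lower genes the mean with H-CDs stayed above that of control.

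Enzymes that disarm superoxide and peroxide themselves moved both ways. Of 6 tested genes 2 rose and 2 fell, and without LPS + H-CDs replicate 1 the cytosolic dismutase gene Sod1 was no longer called (adjusted p = 0.0586). Cat, catalase, measured 18.2, 17.2 and 16.3 FPKM with LPS alone and 41.1, 56.1 and 57.9 FPKM with H-CDs, with replicate 1 lowest of the H-CDs libraries (log2 fold change 1.52 ± 0.12 (SE), adjusted p = 6.5e-05). The glutathione peroxidase gene Gpx1 measured 91.9, 89.2 and 100.2 FPKM with LPS alone and 52.7, 55.2 and 60.3 FPKM with H-CDs, lower in every library with H-CDs (log2 fold change -0.73 ± 0.073 (SE), adjusted p = 0.000269). Sod2, the manganese dismutase of mitochondria, measured 61.6, 61 and 67.7 FPKM with LPS alone and 46.3, 49.1 and 45 FPKM with H-CDs, also without overlap (log2 fold change -0.43 ± 0.062 (SE), adjusted p = 0.00193).

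Genes of NADPH supply and carbonyl detoxification follow. Of 13 NADPH and pentose phosphate genes 6 rose, 1 fell and 6 were not called, with a median of 0.13. Pgd, which makes NADPH in the pentose phosphate pathway, measured 55.1, 56.9 and 58.3 FPKM with LPS alone and 137, 130.1 and 126 FPKM with H-CDs (log2 fold change 1.19 ± 0.075 (SE), adjusted p = 1.83e-05). G6pdx, the entry enzyme of that pathway, rose 1.87-fold, from 78.9 ± 2.0 to 148 ± 15.6 FPKM, and Taldo1, of its non-oxidative branch, went from 71.6 ± 5.38 to 118 ± 6.44 FPKM. The exception was Nadk, the kinase that makes NADP from NAD, whose mean went from 162 ± 4.93 to 108 ± 4.85 FPKM (log2 fold change -0.57). Among 15 carbonyl, quinone and conjugation enzymes 8 rose and the other 7 were not called, with a median of 0.47. Akr1b8 (chromosome 6, 34354119 to 34368463), an aldo-keto reductase, measured 17.7, 18.3 and 19.9 FPKM with LPS alone and 123, 122 and 121 FPKM with H-CDs (log2 fold change 2.65 ± 0.064 (SE), adjusted p = 3.17e-08). Esd, an esterase that hydrolyses the glutathione adduct of formaldehyde, rose 3.62-fold, from 62.1 ± 1.84 to 225 ± 12.9 FPKM. Cbr3, a carbonyl reductase, measured 0.836, 0.822 and 0.796 FPKM with LPS alone and 6.82, 4.35 and 6.06 FPKM with H-CDs, with the H-CDs libraries spread but all above LPS alone (log2 fold change 1.87 ± 0.16 (SE), adjusted p = 0.000104).

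Regulators of this response are given next. Keap1, Nfe2l2 (which encodes NRF2) and Bach1, a repressor of NRF2 target genes, were not called, and 2 of 10 regulators rose, against 6.54% of all tested genes. These were Sqstm1, an autophagy receptor that also binds KEAP1, at 218, 218 and 224 FPKM with LPS alone and 995, 934 and 880.5 FPKM with H-CDs (log2 fold change 2.08 ± 0.077 (SE), adjusted p = 6.37e-07), and Mafg, a small MAF partner of NRF2, from 33.5 ± 0.902 to 49.4 ± 6.12 FPKM (log2 fold change 0.54). Metallothionein and zinc transport genes had 2 higher (16.7%) and 3 lower (25%) of 12, against 6.54% and 9.05% of all tested genes. Neither metallothionein gene, Mt1 or Mt2, was called, and the zinc exporter gene Slc30a1 rose from 2.04 ± 0.110 to 3.76 ± 0.202 FPKM (log2 fold change 0.65).

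Several of the highest genes fall outside these pathways. Procr (chromosome 2, 155751117 to 155755471), the endothelial protein C receptor, measured 9.11, 10.7 and 9.53 FPKM with LPS alone and 69.7, 74 and 74.4 FPKM with H-CDs (log2 fold change 2.77 ± 0.076 (SE), adjusted p = 7.5e-08). Its level in untreated cells was 1.28 FPKM, so it was low in control, higher with LPS alone and highest with H-CDs. Layn (chromosome 9, 51054640 to 51077094), encoding layilin, a membrane receptor for hyaluronan, measured 6.69, 6.39 and 5.39 FPKM with LPS alone and 33.8, 36.3 and 35.3 FPKM with H-CDs (log2 fold change 2.34 ± 0.081 (SE), adjusted p = 4.66e-07). Rnf183, a ubiquitin ligase gene, measured 1.03, 1.16 and 1.75 FPKM with LPS alone and 6.54, 10.8 and 12.7 FPKM with H-CDs; the H-CDs libraries differed among themselves, with replicate 1 lowest (log2 fold change 2.22 ± 0.24 (SE), adjusted p = 0.000384). All 15 of the highest genes were also called without LPS + H-CDs replicate 1, with log2 fold changes of 1.48 to 4.59. In LPS alone 7 of the 15 lay above their control mean, and with H-CDs all 15 did.

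Promoters of the highest genes were read for the antioxidant response element, the site of NRF2 with a small MAF protein, written here as TGACNNNGC, and for the AP-1 motif TGANTCA, which overlaps it in part; the AP-1 motif was added after the first was seen. Sequences come from the RefSeq promoter table on GRCm38.p6 and run from 250 bases before to 50 bases after the annotated start. Of the 10 highest genes, Hmox1 and Slc48a1 had no entry in that table, and Akr1b8, Layn, Rnf183 and Blvrb held no match. The 4 that hold TGACNNNGC are shown, because the element is the known site of the pathway to which 3 of them belong. They lie at chr2:152105274-152105573 for Srxn1, chr3:122245307-122245606 for Gclm, chr2:155750967-155751266 for Procr and chr4:116685349-116685648 for Prdx1, all on the plus strand, written 5′ to 3′ with matches to either motif on either strand in capitals.
Srxn1: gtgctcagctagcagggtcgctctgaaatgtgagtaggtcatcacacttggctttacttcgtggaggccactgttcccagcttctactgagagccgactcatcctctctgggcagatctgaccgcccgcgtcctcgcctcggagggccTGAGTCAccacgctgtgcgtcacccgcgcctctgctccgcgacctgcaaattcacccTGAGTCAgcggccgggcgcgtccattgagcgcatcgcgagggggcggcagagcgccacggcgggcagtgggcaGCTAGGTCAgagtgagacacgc
Gclm: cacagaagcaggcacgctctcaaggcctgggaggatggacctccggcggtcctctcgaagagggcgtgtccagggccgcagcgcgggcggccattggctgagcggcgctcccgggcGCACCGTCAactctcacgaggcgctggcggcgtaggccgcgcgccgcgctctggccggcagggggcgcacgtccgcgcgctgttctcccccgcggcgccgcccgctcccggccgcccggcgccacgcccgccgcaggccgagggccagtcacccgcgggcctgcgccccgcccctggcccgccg
Procr: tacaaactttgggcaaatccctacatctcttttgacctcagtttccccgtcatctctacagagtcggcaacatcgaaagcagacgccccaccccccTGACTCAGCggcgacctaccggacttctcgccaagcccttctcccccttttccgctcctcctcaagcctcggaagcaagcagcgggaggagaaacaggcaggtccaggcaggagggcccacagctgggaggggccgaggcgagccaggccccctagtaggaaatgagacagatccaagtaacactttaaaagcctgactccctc
Prdx1: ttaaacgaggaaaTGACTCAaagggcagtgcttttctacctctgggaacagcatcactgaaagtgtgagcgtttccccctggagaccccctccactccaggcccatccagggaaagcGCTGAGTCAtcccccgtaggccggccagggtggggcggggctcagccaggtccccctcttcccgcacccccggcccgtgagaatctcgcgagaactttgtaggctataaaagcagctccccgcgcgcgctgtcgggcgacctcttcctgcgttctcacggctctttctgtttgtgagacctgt
In Procr and Prdx1 the 2 motifs overlap in a single stretch, and Srxn1 and Prdx1 hold further AP-1 matches. Over sets of genes, TGACNNNGC was found in 6 of 41 promoters of genes at least 2-fold higher (14.6%), in 7 of 44 of genes at least 2-fold lower (15.9%) and in 15.2% of the 8054 tested genes with a promoter in the table. TGANTCA was found in 12.2%, 20.5% and 4.82% of these sets. A match describes the letters of this window only.

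Genes of amino acid supply mostly rose, in smaller steps. Of 27 tested ATF4 targets 19 were higher and 8 were not called, with 16 higher without LPS + H-CDs replicate 1 and a median of 0.43. Asns, asparagine synthetase, measured 107, 107 and 102 FPKM with LPS alone and 169, 172 and 168 FPKM with H-CDs, tightly grouped on both sides (log2 fold change 0.68 ± 0.054 (SE), adjusted p = 6.85e-05). Gpt2, a mitochondrial alanine transaminase, measured 6.08, 6.15 and 6.3 FPKM with LPS alone and 10.6, 11.3 and 10.5 FPKM with H-CDs (log2 fold change 0.72 ± 0.062 (SE), adjusted p = 0.00012). Pck2, the mitochondrial PEP carboxykinase, rose 2.04-fold, from 9.61 ± 0.675 to 19.6 ± 1.7 FPKM. Trib3, a pseudokinase in the feedback of this response, went from 16 ± 1.16 to 34.9 ± 5.04 FPKM, Cth, which makes cysteine, from 9.78 ± 1.41 to 18.2 ± 1.23 FPKM, and Atf4 itself from 252 ± 3.68 to 305 ± 5.7 FPKM. The gene for the pro-death factor CHOP, Ddit3, was not called. Of 20 aminoacyl-tRNA synthetase genes, whose enzymes load amino acids onto transfer RNAs, 7 rose and 1 fell, with 5 and 1 without LPS + H-CDs replicate 1. Nars, for asparagine, measured 269, 262 and 277 FPKM with LPS alone and 435, 384 and 342 FPKM with H-CDs, with replicate 1 highest (log2 fold change 0.52 ± 0.087 (SE), adjusted p = 0.00426).

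Of 24 genes for chaperones of the endoplasmic reticulum and its unfolded protein response, 8 were higher and 16 not called, with 7 higher without LPS + H-CDs replicate 1 and 14 higher when values were scaled to total reads. The disulfide isomerase gene Pdia4 measured 103, 101 and 98.9 FPKM with LPS alone and 160.2, 148 and 152 FPKM with H-CDs (log2 fold change 0.60 ± 0.059 (SE), adjusted p = 0.000256). Hspa5, the chaperone BiP, measured 885, 891 and 929 FPKM with LPS alone and 1436, 1231 and 1150.4 FPKM with H-CDs, highest in replicate 1 (log2 fold change 0.49 ± 0.087 (SE), adjusted p = 0.00581). The stress sensors Ern1, Eif2ak3 and Atf6 and the factor Xbp1 were not called. Cytosolic heat shock genes had 2 of 13 higher, Hsp90aa1 from 352 ± 12.8 to 494 ± 24.4 FPKM and Dnajb4 from 2.05 ± 0.190 to 3.81 ± 0.334 FPKM, both encoding chaperones; Hspa1b, Hspa8 and Dnajb1 were not called. Of 18 p53 targets and GADD45 genes 3 rose (16.7%) and 4 fell (22.2%), with 2 and 4 without LPS + H-CDs replicate 1. Of 14 hypoxia targets 3 rose (21.4%), 1 fell (7.14%) and 10 were not called, with 2 and 1 without LPS + H-CDs replicate 1. The shares over all tested genes were 6.54% higher and 9.05% lower. Pfkfb3, whose enzyme makes an activator of glycolysis, fell 2.25-fold and measured 36.9, 39.3 and 31.5 FPKM with LPS alone and 16.1, 15.2 and 16.6 FPKM with H-CDs (log2 fold change -1.12 ± 0.09 (SE), adjusted p = 7.66e-05). Adm, the peptide adrenomedullin, measured 15, 16.1 and 11.1 FPKM with LPS alone and 29.6, 34.3 and 40.9 FPKM with H-CDs (log2 fold change 1.26 ± 0.16 (SE), adjusted p = 0.000901). Vegfa, the vascular growth factor, went from 23.6 ± 0.816 to 34.9 ± 3.04 FPKM.

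Of 32 proteasome subunits 10 were higher, 1 was lower and 21 were not called, with 6 and 1 without LPS + H-CDs replicate 1. These counts rose to 15 and 1 when rescaled to TPM and 16 and 1 when scaled to total reads. Psmd11, a subunit of the regulatory particle, measured 43.9, 43.5 and 43.2 FPKM with LPS alone and 67.2, 67.1 and 64.1 FPKM with H-CDs (log2 fold change 0.59 ± 0.054 (SE), adjusted p = 0.000161). The gene called lower was Psma6, from 364 ± 8.19 to 276 ± 16.6 FPKM. Of 19 autophagy genes 5 rose and 2 fell, with 3 and 2 without LPS + H-CDs replicate 1, and Sqstm1 was by far the largest at 4.25-fold. Of 38 lysosomal genes 3 rose (7.89%) and 4 fell (10.5%), with 4 and 5 without LPS + H-CDs replicate 1. These shares lie near the 6.54% higher and 9.05% lower of all tested genes. Lipa, the acid lipase that frees cholesterol and fatty acids in lysosomes, measured 43.6, 38.6 and 39.6 FPKM with LPS alone and 77.2, 87.8 and 89.5 FPKM with H-CDs (log2 fold change 1.04 ± 0.075 (SE), adjusted p = 4.19e-05), and the other called genes of that list had log2 fold changes between -0.39 and 0.53.

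The genes that fell furthest mostly encode secreted proteins and surface receptors of activated macrophages. The 15 lowest had log2 fold changes between -2.38 and -1.56, and all 15 were also called without LPS + H-CDs replicate 1. In LPS alone all 15 lay above their control mean, and 14 still did with H-CDs; the other was Ms4a6c, at 3.27 FPKM in control and 10.4 to 2.64 FPKM without and with H-CDs. Ccl22 (chromosome 8, 94745590 to 94751699), a chemokine that attracts CCR4-bearing T cells, measured 168, 158 and 143 FPKM with LPS alone and 26.4, 31.4 and 29.7 FPKM with H-CDs (log2 fold change -2.38 ± 0.088 (SE), adjusted p = 6.37e-07). Ccl17, the partner ligand of the same receptor, measured 5.25, 6.16 and 5.7 FPKM with LPS alone and 0.917, 0.617 and 1.08 FPKM with H-CDs (log2 fold change -1.85 ± 0.20 (SE), adjusted p = 0.000416). Ccl2, the main monocyte chemokine, measured 36.9, 36.2 and 35.8 FPKM with LPS alone and 9.71, 12.9 and 11.5 FPKM with H-CDs, so that 3 chemokine genes stood among the 15 (log2 fold change -1.60 ± 0.093 (SE), adjusted p = 1.18e-05).

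Il1rn (chromosome 2, 24336853 to 24351494), the antagonist that blocks the interleukin-1 receptor, measured 155, 150.3 and 135 FPKM with LPS alone and 27.4, 39.1 and 35.4 FPKM with H-CDs, with replicate 1 lowest (log2 fold change -2.09 ± 0.12 (SE), adjusted p = 8.01e-06). Saa3, an acute phase protein made by macrophages, measured 35.2, 38.3 and 45.2 FPKM with LPS alone and 7.67, 7.66 and 5.62 FPKM with H-CDs (log2 fold change -2.35 ± 0.15 (SE), adjusted p = 2.24e-05). Lcn2, which binds bacterial siderophores and so withholds iron, measured 21.1, 20.2 and 16.1 FPKM with LPS alone and 4.83, 5.7 and 4.58 FPKM with H-CDs (log2 fold change -1.73 ± 0.11 (SE), adjusted p = 1.82e-05). These are products through which macrophages act on other cells and on microbes. Siglec1, a sialic acid binding receptor of macrophages, measured 12.4, 12.8 and 11.9 FPKM with LPS alone and 2.23, 2.04 and 2.74 FPKM with H-CDs (log2 fold change -2.01 ± 0.085 (SE), adjusted p = 1.53e-06). Axl, a receptor tyrosine kinase for the uptake of apoptotic cells, measured 5.11, 5.93 and 5.87 FPKM with LPS alone and 1.04, 0.668 and 0.961 FPKM with H-CDs, against a control mean of 0.186 FPKM (log2 fold change -1.81 ± 0.11 (SE), adjusted p = 1.19e-05). Without its LPS libraries Axl would not have passed the filter on level. Edn1, the precursor of the vasoconstrictor endothelin-1, measured 28.9, 25.7 and 22 FPKM with LPS alone and 7.93, 7.5 and 7.14 FPKM with H-CDs, and Lta, lymphotoxin alpha, 21, 23 and 16.4 FPKM with LPS alone and 4.97, 6.42 and 6.0 FPKM with H-CDs; the groups were far apart for both. The others were Wfdc17, Cd300e, Urah, Ms4a6c and Ms4a6d, and the Ms4a6 genes are close relatives that can share reads.

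The promoters of Ccl22 and Il1rn are shown as the lowest genes that hold the NF-kB pattern GGGNNNNNCC, on either strand in capitals; of the 10 lowest genes 5 held it, 4 did not and 1 had no entry. They lie at chr8:94745434-94745733 and chr2:24336610-24336909 on GRCm38.p6, both on the plus strand; for Il1rn the first of 3 listed starts was used.
Ccl22: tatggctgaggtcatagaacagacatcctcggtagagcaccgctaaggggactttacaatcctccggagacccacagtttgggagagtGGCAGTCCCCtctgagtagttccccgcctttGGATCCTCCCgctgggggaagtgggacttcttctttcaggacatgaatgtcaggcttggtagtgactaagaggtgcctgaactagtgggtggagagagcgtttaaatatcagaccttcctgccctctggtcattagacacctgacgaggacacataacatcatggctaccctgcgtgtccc
Il1rn: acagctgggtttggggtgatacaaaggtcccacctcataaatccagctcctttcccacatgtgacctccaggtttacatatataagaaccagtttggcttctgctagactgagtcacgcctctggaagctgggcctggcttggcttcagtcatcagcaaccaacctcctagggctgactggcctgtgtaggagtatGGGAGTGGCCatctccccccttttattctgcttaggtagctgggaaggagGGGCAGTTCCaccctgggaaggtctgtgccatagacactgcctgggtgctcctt
The NF-kB pattern is loose and common: it was found in 54.5% of promoters of genes at least 2-fold lower, 61.0% of those at least 2-fold higher and 68.2% of all tested genes. The interferon pattern GAAANNGAAA was found in 5 of 44 promoters of genes at least 2-fold lower (11.4%), in 0 of 41 of those higher, a count that allows a share of up to 7.32%, and in 3.18% of all. TGATGNAA, an ATF4 pattern, was found in 4.55%, 7.32% and 2.14% in the same order.

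Cytokine genes mostly fell. Of 17 tested, 12 were lower and 1 higher, with a median of -0.61; rescaled to TPM, 8 were lower and the other 9 were not called. Csf2, encoding GM-CSF, measured 127, 132 and 133 FPKM with LPS alone and 44, 46.6 and 49.2 FPKM with H-CDs (log2 fold change -1.47 ± 0.061 (SE), adjusted p = 1.46e-06). Il27, a subunit of interleukin-27, measured 307, 305 and 321 FPKM with LPS alone and 92.4, 118 and 109 FPKM with H-CDs (log2 fold change -1.54 ± 0.086 (SE), adjusted p = 8.01e-06). Its partner subunit gene Ebi3 went from 53.8 ± 4.62 to 35.5 ± 7.84 FPKM and Il1a, an interleukin-1 that acts as an alarm signal, from 145 ± 11 to 64.1 ± 12.3 FPKM. Ifnb1, interferon beta, went from 10.2 ± 2.52 to 5.15 ± 1.24 FPKM. Csf3, encoding G-CSF, measured 1446, 1465 and 1457 FPKM with LPS alone and 659, 818 and 806 FPKM with H-CDs, which made it one of the largest losses in absolute level (log2 fold change -0.94 ± 0.094 (SE), adjusted p = 0.000269). Of 11 chemokine genes 7 fell and 1 rose, with a median of -0.60.

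Called genes of NF-kB control were lower but for 1, and those of the receptor pathway upstream went both ways. Of 26 NF-kB subunits, inhibitors and feedback genes 11 fell, 1 rose and 14 were not called, with 10 and 1 without LPS + H-CDs replicate 1. Tnfaip3, the deubiquitinase A20 that restrains NF-kB, measured 50.1, 46.7 and 46.7 FPKM with LPS alone and 20.7, 20 and 19.7 FPKM with H-CDs (log2 fold change -1.21 ± 0.055 (SE), adjusted p = 2.52e-06). Bcl3, an atypical inhibitor protein that tunes NF-kB in the nucleus, measured 27.5, 31 and 30.6 FPKM with LPS alone and 9.71, 13.2 and 12.4 FPKM with H-CDs (log2 fold change -1.27 ± 0.12 (SE), adjusted p = 0.000154). Among the subunits Nfkb1, Nfkb2 and Rel fell, Rel from 46.8 ± 4.4 to 31.4 ± 0.507 FPKM, and Rela and Relb were not called. Of 25 Toll-like receptor pathway genes 7 fell and 2 rose, with 6 and 2 without LPS + H-CDs replicate 1. Irak3, an inhibitory kinase relative in this pathway, measured 17.1, 15.8 and 16.2 FPKM with LPS alone and 7.02, 9.24 and 9.49 FPKM with H-CDs (log2 fold change -0.87 ± 0.10 (SE), adjusted p = 0.000701). Tlr7, a receptor for single-stranded RNA, fell 1.76-fold, from 17.1 ± 1.43 to 9.71 ± 1.62 FPKM. Tlr4, the receptor gene for LPS, rose from 2.44 ± 0.344 to 3.82 ± 0.679 FPKM (adjusted p = 0.0461). Its partner gene Ly96, encoding MD-2, rose from 4.12 ± 0.269 to 6.33 ± 0.616 FPKM (adjusted p = 0.0136). The LPS co-receptor gene Cd14 lay lower in every library with H-CDs, at 2168, 2151 and 2358 FPKM with LPS alone and 2050, 1922 and 1807 FPKM with H-CDs. Rescaled to TPM, 5 genes of the Toll-like receptor list fell and 1 rose.

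Some feedback regulators and immediate early factors fell as well. Of 19 DUSP phosphatase and cytokine feedback genes 8 were lower and 11 were not called, with 6 lower without LPS + H-CDs replicate 1. Zfp36, which destabilises cytokine messenger RNAs, measured 249.8, 248 and 243 FPKM with LPS alone and 149.8, 161 and 155 FPKM with H-CDs (log2 fold change -0.67 ± 0.061 (SE), adjusted p = 0.000154). Socs3, which limits cytokine receptor signalling, measured 318, 327 and 329 FPKM with LPS alone and 226, 205 and 191 FPKM with H-CDs (log2 fold change -0.65 ± 0.075 (SE), adjusted p = 0.000581). Both groups were tight and did not overlap. Of 19 AP-1, EGR, MYC and ATF factors 7 fell and 4 rose, with 7 and 5 without LPS + H-CDs replicate 1. Egr1 measured 19.4, 19.8 and 18.1 FPKM with LPS alone and 5.35, 8.41 and 8.45 FPKM with H-CDs, lowest in replicate 1 (log2 fold change -1.28 ± 0.14 (SE), adjusted p = 0.000451). Myc, a driver of growth, measured 33.9, 34.9 and 34.6 FPKM with LPS alone and 15.3, 18.1 and 19.1 FPKM with H-CDs (log2 fold change -0.95 ± 0.092 (SE), adjusted p = 0.000233). Ier3, an early response gene that modulates cell survival, rose against them at 1222, 1206 and 1178 FPKM with LPS alone and 1977, 2005 and 1802 FPKM with H-CDs (log2 fold change 0.68 ± 0.095 (SE), adjusted p = 0.00167).

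Antiviral genes induced by interferon fell broadly and by modest amounts. Of 35 tested, 25 were lower and the other 10 were not called, with 23 lower without LPS + H-CDs replicate 1 and a median of -0.42. Ifit3, of a family that binds viral RNA, measured 16.6, 15.8 and 16.7 FPKM with LPS alone and 8.22, 8.5 and 8.32 FPKM with H-CDs, all H-CDs libraries near a common level (log2 fold change -0.89 ± 0.056 (SE), adjusted p = 1.82e-05). Zbp1, a sensor of Z-form nucleic acids that can start cell death, measured 18.4, 18.1 and 17.3 FPKM with LPS alone and 5.95, 7.73 and 7.66 FPKM with H-CDs (log2 fold change -1.23 ± 0.094 (SE), adjusted p = 6.21e-05). Ifi204, a DNA-binding member of the p200 family, measured 19.4, 18.4 and 17.4 FPKM with LPS alone and 5.56, 7.35 and 8.07 FPKM with H-CDs (log2 fold change -1.29 ± 0.11 (SE), adjusted p = 0.000125). Rsad2, Isg15, Oasl1 and Bst2 were among those not called. Of 9 interferon-inducible GTPases, which attack the vacuoles of microbes, 5 fell and 4 were not called. Gbp2 measured 2.26, 2.63 and 2.25 FPKM with LPS alone and 0.321, 0.655 and 0.659 FPKM with H-CDs and Gbp3 9.38, 8.77 and 9.03 FPKM with LPS alone and 5.16, 4.62 and 4.47 FPKM with H-CDs, with log2 fold changes of -1.14 and -0.81. Of 13 STAT and IRF factors 5 fell and 8 were not called. Irf8, a factor of the macrophage lineage, measured 57.5, 58 and 59.3 FPKM with LPS alone and 36.8, 35.8 and 38 FPKM with H-CDs (log2 fold change -0.65 ± 0.05 (SE), adjusted p = 6.53e-05). Irf7, which amplifies interferon genes, measured 96.9, 98.1 and 102 FPKM with LPS alone and 66.6, 63.2 and 65.7 FPKM with H-CDs (log2 fold change -0.59 ± 0.056 (SE), adjusted p = 0.000195). Irf1 and Irf9 were not called.

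Antigen presentation and co-stimulation genes leaned the same way. Of 15 immunoproteasome and MHC class I genes 8 fell and 1 rose, a count that depended on processing: 5 fell without LPS + H-CDs replicate 1, 5 when rescaled to TPM and 2 when scaled to total reads. Nlrc5, the activator of MHC class I transcription, measured 11, 10.2 and 10.1 FPKM with LPS alone and 5.67, 5.71 and 6.29 FPKM with H-CDs (log2 fold change -0.73 ± 0.065 (SE), adjusted p = 0.000148), and the class I genes H2-K1 and H2-D1 and the light chain B2m were not called. Of 9 co-stimulatory and co-inhibitory ligands 5 fell and 2 rose. Cd40, the receptor through which T cells license macrophages, measured 51.4, 52.3 and 53 FPKM with LPS alone and 25.2, 23.3 and 24.3 FPKM with H-CDs (log2 fold change -1.08 ± 0.053 (SE), adjusted p = 4.29e-06). Lgals9, encoding galectin-9, fell from 74.3 ± 1.66 to 43.4 ± 2.66 FPKM, and Cd276, of the B7 family, rose from 2.01 ± 0.221 to 3.26 ± 0.286 FPKM.

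Called enzymes of inflammatory mediators went both ways. Nos2, the inducible nitric oxide synthase, measured 142, 134 and 109.7 FPKM with LPS alone and 51.7, 51.5 and 51.4 FPKM with H-CDs; the H-CDs libraries agreed closely while those of LPS alone were spread (log2 fold change -1.30 ± 0.16 (SE), adjusted p = 0.000718). Ptgs1, the constitutive cyclooxygenase, measured 1.06, 1.18 and 1.28 FPKM with LPS alone and 2.84, 2.89 and 3.13 FPKM with H-CDs (log2 fold change 0.86 ± 0.073 (SE), adjusted p = 0.000104), and Alox5ap, which feeds arachidonate to leukotriene synthesis, 13.5, 11.8 and 11.4 FPKM with LPS alone and 24.1, 21.3 and 20.1 FPKM with H-CDs (log2 fold change 0.79 ± 0.085 (SE), adjusted p = 0.000415). Both were higher in every library with H-CDs, and Ptges, a prostaglandin E synthase, fell from 11.4 ± 0.121 to 7.68 ± 0.410 FPKM. In all, 5 of 14 effector and prostaglandin genes fell and 2 rose, with 4 and 2 without LPS + H-CDs replicate 1. The gene that lost its call was Acod1, whose enzyme makes itaconate, at 2840.4, 2695 and 2599 FPKM with LPS alone and 2119.6, 2239 and 2234 FPKM with H-CDs (adjusted p = 0.0246 and 0.051 without that library). Of 11 inflammasome genes 1 rose (9.09%) and 2 fell (18.2%), with 2 and 3 without LPS + H-CDs replicate 1. Over all tested genes 6.54% were higher and 9.05% lower, so counts this small say little about the list. Casp1, the inflammasome protease, measured 17.7, 19.1 and 19.9 FPKM with LPS alone and 30, 33.8 and 30.9 FPKM with H-CDs (log2 fold change 0.71 ± 0.077 (SE), adjusted p = 0.000415), and Casp4, named caspase-11 in mice, which senses intracellular LPS, fell from 13.9 ± 0.865 to 9.08 ± 1.29 FPKM (log2 fold change -0.57).

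Among surface receptors, adhesion genes and the actin cytoskeleton, the called adhesion genes were lower and the called scavenger receptors went both ways. Msr1, the class A scavenger receptor, measured 48.9, 45 and 46.9 FPKM with LPS alone and 13.9, 17.7 and 17.3 FPKM with H-CDs (log2 fold change -1.47 ± 0.087 (SE), adjusted p = 1.19e-05). Of 11 scavenger receptors and lectins 3 fell and 2 rose, with 3 and 3 without LPS + H-CDs replicate 1; Clec4d, a C-type lectin, rose from 63.6 ± 7.23 to 107 ± 7.51 FPKM. Of 11 integrin and ICAM genes 5 fell and 6 were not called. Itgal, an integrin alpha chain that binds ICAM-1, measured 19.8, 18.9 and 18.9 FPKM with LPS alone and 8.46, 7.29 and 7.5 FPKM with H-CDs (log2 fold change -1.21 ± 0.091 (SE), adjusted p = 5.97e-05). Itga5, of the fibronectin receptor, measured 156, 153 and 149 FPKM with LPS alone and 107, 104 and 105 FPKM with H-CDs (log2 fold change -0.53 ± 0.057 (SE), adjusted p = 0.000384). The hyaluronan receptor gene Cd44 fell from 72.3 ± 4.1 to 45.5 ± 4.88 FPKM. Of 25 actin cytoskeleton genes 10 fell and 1 rose, with 9 and 1 without LPS + H-CDs replicate 1, and a median of -0.23. Vasp, which promotes actin filament growth, measured 354, 382 and 405 FPKM with LPS alone and 235, 261 and 245 FPKM with H-CDs (log2 fold change -0.62 ± 0.072 (SE), adjusted p = 0.000583), Actb itself 2341, 2368 and 2352 FPKM with LPS alone and 1634, 1598 and 1602 FPKM with H-CDs (log2 fold change -0.55 ± 0.072 (SE), adjusted p = 0.00123), and the actin bundling gene Lcp1 fell from 290.2 ± 8.84 to 199 ± 15.6 FPKM. Actb is often used to normalise other measurements, and here its groups did not overlap.

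Matrix and mediator genes on the list of complement and acute phase proteins had 6 of 9 lower and 1 higher, the exception being the protease inhibitor gene Slpi, from 114 ± 4.09 to 205 ± 18.5 FPKM. Mmp9, gelatinase B, measured 9.38, 8.68 and 9.87 FPKM with LPS alone and 2.97, 3.03 and 3.53 FPKM with H-CDs (log2 fold change -1.30 ± 0.09 (SE), adjusted p = 3.05e-05), and its inhibitor gene Timp1 112, 131 and 129 FPKM with LPS alone and 61.2, 63.5 and 62.1 FPKM with H-CDs (log2 fold change -0.98 ± 0.10 (SE), adjusted p = 0.000333). Both thus fell, out of 5 tested matrix metalloproteinase genes and inhibitors, with 3 called lower without LPS + H-CDs replicate 1. Of 10 genes for the uptake of apoptotic cells Axl fell and 3 rose, among them Mfge8, a bridging protein, from 7.88 ± 0.331 to 10.5 ± 0.710 FPKM. Genes shared with osteoclasts, a fate these cells can take, had 2 higher and 3 lower of 8: Dcstamp, needed for cell fusion, rose from 7.67 ± 0.664 to 16 ± 1.41 FPKM (log2 fold change 0.97 ± 0.089 (SE), adjusted p = 0.000161), and Spp1, osteopontin, fell, at 5258, 5220.3 and 5207 FPKM with LPS alone and 3369, 3605 and 3575 FPKM with H-CDs (log2 fold change -0.57 ± 0.079 (SE), adjusted p = 0.0016). Among 7 coagulation and plasminogen genes Procr rose and Plau, the urokinase, fell from 9.48 ± 0.462 to 6.29 ± 1.11 FPKM, while the tissue factor gene F3 was not called. Each direction thus held 14.3% of that list, against 6.54% higher and 9.05% lower over all tested genes.

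**Figure D3:**
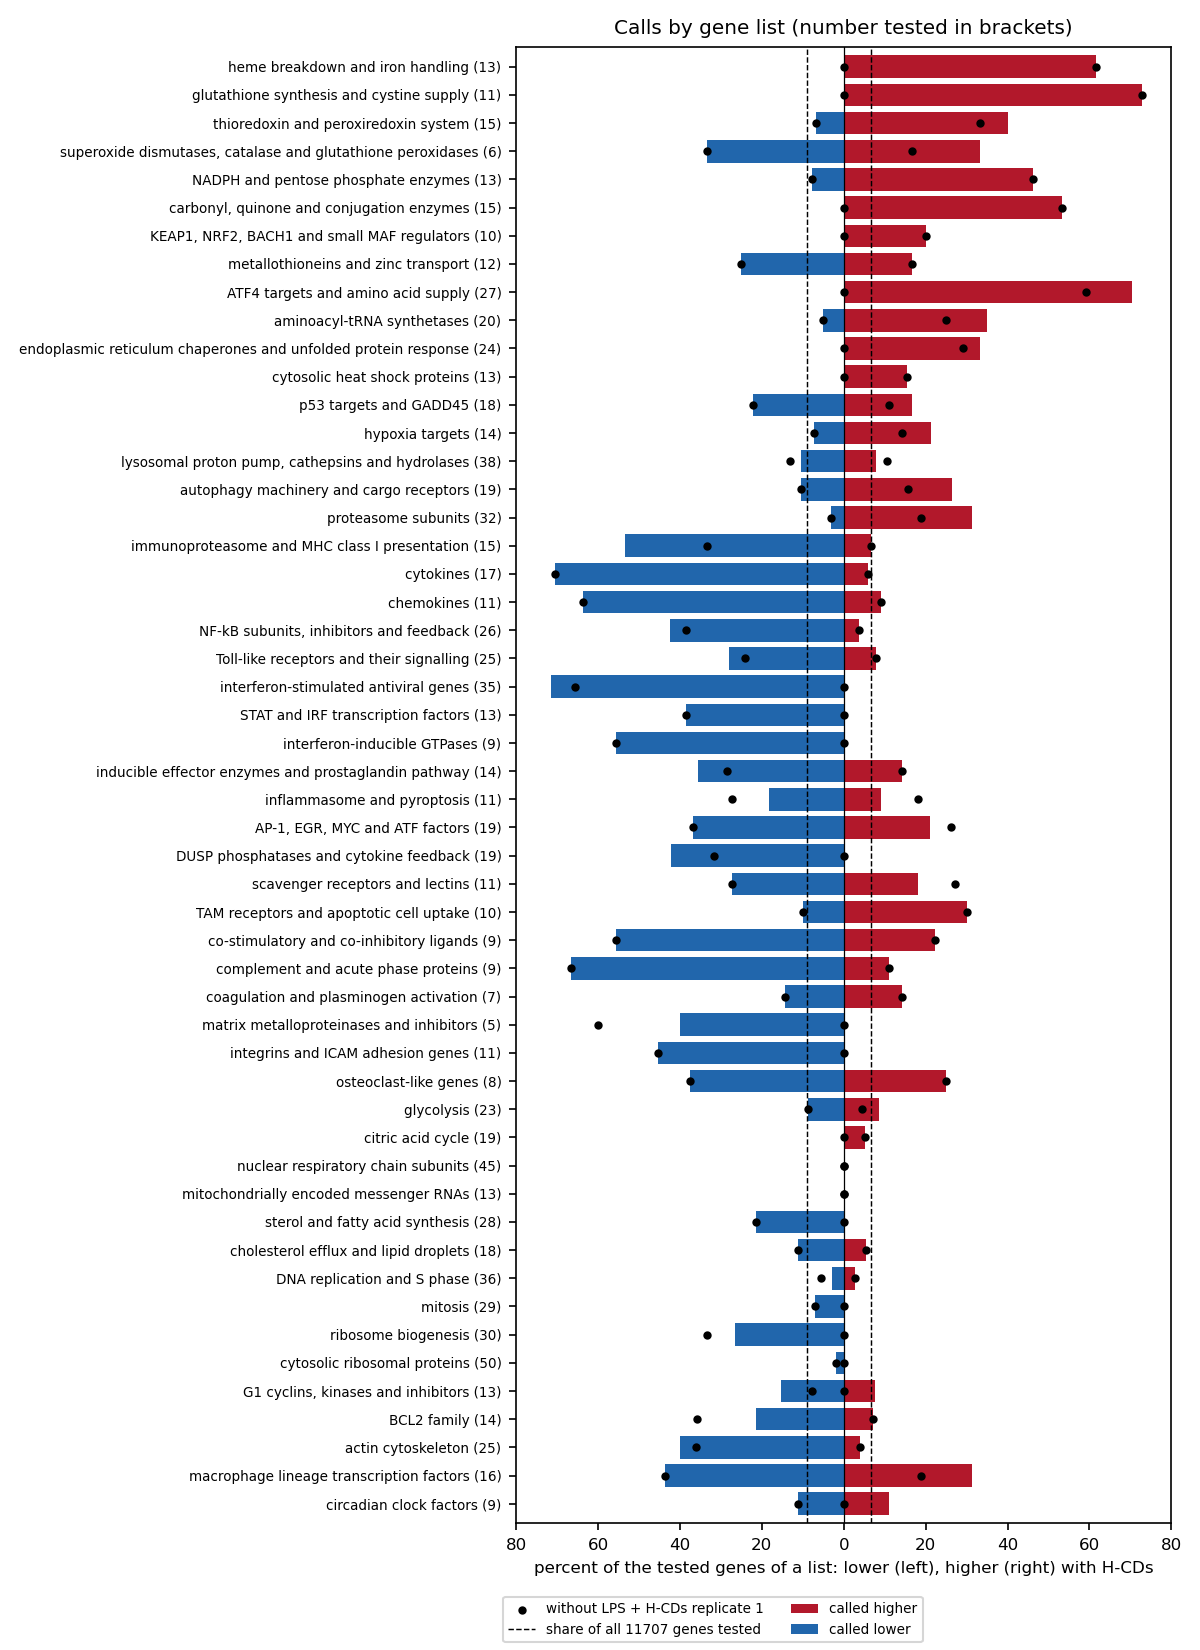
Percent of the tested genes of 52 lists called higher (red, right of 0) and lower (blue, left) with H-CDs, with black dots for the same share without LPS + H-CDs replicate 1 and dashed lines for the shares over all 11707 genes (6.54% and 9.05%). Glutathione, ATF4 and heme lists reach furthest right, and interferon-stimulated, cytokine and complement lists furthest left; both respiratory chain lists have 0 called.

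Few genes of energy metabolism were called. Of 45 nuclear respiratory chain subunits 0 were called in limma, with a median of 0.032; 1 had an unadjusted p under 0.05, and edgeR and DESeq2 called 1 each. Of the 13 mitochondrially encoded messenger RNAs 0 were called in limma, 0 had an unadjusted p under 0.05 and edgeR and DESeq2 called 0, with a median of -0.55 that became 0.031 without LPS + H-CDs replicate 1. Of 19 citric acid cycle genes 1 was called: Pcx, pyruvate carboxylase, measured 3.3, 3.29 and 2.9 FPKM with LPS alone and 7.97, 7.37 and 9.05 FPKM with H-CDs (log2 fold change 1.13 ± 0.10 (SE), adjusted p = 0.000161). Of 23 glycolysis genes 2 rose and 2 fell (8.70% each), with 1 and 2 without LPS + H-CDs replicate 1. These shares lie near the 6.54% higher and 9.05% lower of all tested genes. Slc2a6, a lysosomal hexose transporter, measured 43.6, 44.4 and 45.5 FPKM with LPS alone and 31.7, 31.6 and 31.6 FPKM with H-CDs (log2 fold change -0.48 ± 0.069 (SE), adjusted p = 0.00205), and Hk2, an inducible hexokinase, fell from 120.1 ± 2.28 to 95 ± 10.6 FPKM. Of 28 sterol and fatty acid synthesis genes 6 fell and 22 were not called, and 3 fell when rescaled to TPM or to total reads. Fasn, fatty acid synthase, measured 103, 102 and 101 FPKM with LPS alone and 67.2, 59.1 and 72.1 FPKM with H-CDs (log2 fold change -0.62 ± 0.095 (SE), adjusted p = 0.00263), and Acaca, which supplies its substrate, fell from 10.4 ± 0.691 to 6.94 ± 0.384 FPKM. Mylip, whose ubiquitin ligase degrades the LDL receptor, measured 3.75, 4.51 and 4.07 FPKM with LPS alone and 1.96, 1.98 and 1.9 FPKM with H-CDs (log2 fold change -0.79 ± 0.078 (SE), adjusted p = 0.00024).

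Growth genes moved in part, while the DNA replication and mitosis lists stayed below the shares of all tested genes (6.54% higher and 9.05% lower). The list of 36 DNA replication genes had 1 higher and 1 lower (2.78% each), with 1 and 2 without LPS + H-CDs replicate 1. The 29 mitosis genes had 0 higher and 2 lower (6.90%), Mki67 and Cenpe. Without LPS + H-CDs replicate 1, Cenpe lost its call (adjusted p = 0.0923) and another mitosis gene gained one, so that 2 were again lower. Ccnd1, cyclin D1, which drives entry into the cell cycle, measured 69.3, 72.3 and 69.6 FPKM with LPS alone and 43, 38 and 45.7 FPKM with H-CDs (log2 fold change -0.73 ± 0.077 (SE), adjusted p = 0.00038). Ribosome biogenesis genes, which serve the nucleolus, had 8 of 30 lower and 22 not called, with 10 lower without LPS + H-CDs replicate 1 and 5 lower when rescaled to TPM or to total reads. Dkc1, the pseudouridine synthase of the nucleolus, measured 49.4, 52.3 and 52.1 FPKM with LPS alone and 40.8, 40.4 and 37.3 FPKM with H-CDs (log2 fold change -0.37 ± 0.058 (SE), adjusted p = 0.00313), and Polr1a, the largest subunit of RNA polymerase I, fell from 19.1 ± 0.770 to 14.4 ± 1.17 FPKM. By contrast 1 of 50 ribosomal protein genes was called, Rps18, from 17.7 ± 1.0 to 13.7 ± 1.41 FPKM (adjusted p = 0.0239, lost when scaled to total reads). Of 14 BCL2 family genes 3 fell (21.4%) and 1 rose (7.14%), with 5 and 1 without LPS + H-CDs replicate 1: the survival gene Bcl2l1 measured 65.4, 67.2 and 73.1 FPKM with LPS alone and 47.3, 42.5 and 42.2 FPKM with H-CDs (log2 fold change -0.63 ± 0.076 (SE), adjusted p = 0.000723), and the pro-death gene Bid rose from 21.9 ± 0.346 to 27.9 ± 1.11 FPKM.

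Transcription factors of the macrophage lineage were often called, 5 of 16 higher and 7 lower, with 3 and 7 without LPS + H-CDs replicate 1. Cebpd, induced in inflammation, measured 35.3, 37.3 and 41.2 FPKM with LPS alone and 22.6, 18.8 and 18.2 FPKM with H-CDs (log2 fold change -0.90 ± 0.091 (SE), adjusted p = 0.000285). Nr4a1, an orphan nuclear receptor, measured 5.4, 6.55 and 5.37 FPKM with LPS alone and 2.09, 2.57 and 2.91 FPKM with H-CDs (log2 fold change -0.94 ± 0.11 (SE), adjusted p = 0.000561). Id3, an inhibitor of helix-loop-helix factors, fell from 22.7 ± 1.19 to 14.5 ± 0.969 FPKM. Bhlhe41, a repressor, rose from 1.7 ± 0.490 to 3.56 ± 0.114 FPKM, and Spi1, encoding the lineage factor PU.1, was not called.

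The called genes took different shares of the libraries in the groups. Genes called higher took 5.37, 5.39 and 5.40% of the reads with LPS alone and 9.78, 9.49 and 9.24% with H-CDs. Those called lower took 21.9, 21.7 and 21.0% and then 15.9, 16.0 and 16.7%. These shares restate the choice of genes and carry no test. The largest gains in mean FPKM were in Fth1, Hmox1, Ftl1, Prdx1 and Ier3, and the largest losses in Spp1, Actb, Csf3, Acod1 and Lyz2. Lyz2, lysozyme, a defining gene of macrophages, measured 866, 833 and 992 FPKM with LPS alone and 501, 514 and 469 FPKM with H-CDs (log2 fold change -0.85 ± 0.091 (SE), adjusted p = 0.000397). The median gene called higher stood at 5.73 FPKM with LPS alone and the median gene called lower at 19.2. Calls were more frequent among abundant genes, with 7.69% of the lowest of 5 equal bins of genes by mean level and 22.1% of the highest bin; measurements of abundant genes rest on more reads.

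Protein-coding genes made up 9787 of the tested genes, with 728 higher and 967 lower, or 575 and 818 without LPS + H-CDs replicate 1. Of 208 antisense genes 4 were higher and 16 lower (3 and 11 without that library), and of 170 long intergenic RNAs 5 were higher and 9 lower (5 and 7). Calls in either direction made up 9.62% of antisense genes and 8.24% of long intergenic RNAs, against 15.6% of all tested genes. Gm35037, a long intergenic RNA on chromosome 7, 3451357 to 3475020, measured 5.03, 4.66 and 5.79 FPKM with LPS alone and 39.9, 47 and 38.8 FPKM with H-CDs (log2 fold change 2.80 ± 0.20 (SE), adjusted p = 4.19e-05). The processed pseudogene Gm21399 measured 7.91, 8.14 and 8.8 FPKM with LPS alone and 32.1, 47.2 and 37.4 FPKM with H-CDs (log2 fold change 2.09 ± 0.18 (SE), adjusted p = 0.000116) and Gm14073 14, 9.08 and 11.4 FPKM with LPS alone and 1.41, 2.66 and 1.63 FPKM with H-CDs (log2 fold change -2.11 ± 0.18 (SE), adjusted p = 9.95e-05). Reads of such copies and of antisense genes can come from a parent or partner gene, because the labels do not say that strand was kept. Genes with at least 3 reads in each library of one group and none in the other numbered 4 in each direction. Sstr5, a somatostatin receptor, had 0 reads in the 3 LPS libraries and 40, 42 and 25 reads with H-CDs. The other 7 had 3 to 9 reads per library in the group where they were found.

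The genes in which LPS + H-CDs replicate 1 lay furthest below replicates 2 and 3 were largely mitochondrial. Mitochondrially encoded messenger RNAs filled 7 of the 8 lowest places. mt-Nd4, a complex I subunit, measured 675, 573 and 569.8 FPKM with LPS alone and 108, 618 and 622 FPKM with H-CDs, and mt-Cytb, of complex III, 2006, 1877 and 1876 FPKM with LPS alone and 490.0, 1918 and 1923 FPKM with H-CDs. In both, replicate 1 lay below all LPS libraries while replicates 2 and 3 lay among them. The share of mitochondrial messenger RNA was 1.52 ± 0.103% with LPS alone and 1.25 ± 0.656% with H-CDs (exact 2-sided permutation test, p = 0.8; the smallest p that 3 against 3 allows is 0.1). The eighth was Ifitm2, an antiviral membrane protein, at 148, 145 and 154 FPKM with LPS alone and 19, 97.6 and 112 FPKM with H-CDs: it was not called with all libraries (adjusted p = 0.14) and was called lower without that library (log2 fold change -0.50, adjusted p = 0.0393). Among the 8 genes at the high end were Sumo2 and Lars2. Sumo2, a ubiquitin-like modifier, measured 7.51, 14.3 and 30.2 FPKM with LPS alone and 46.5, 5.95 and 30.7 FPKM with H-CDs, and its LPS libraries were also widely spread. Lars2, the mitochondrial leucyl-tRNA synthetase, measured 23.5, 19.4 and 23.1 FPKM with LPS alone and 34.3, 17.9 and 13.5 FPKM with H-CDs.

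**Figure D4:**
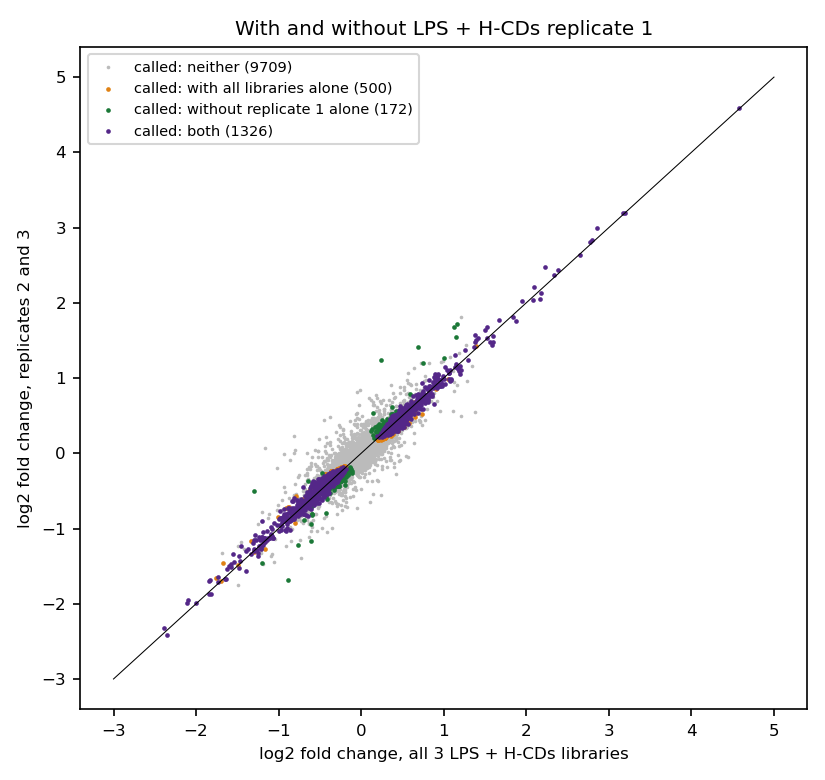
Log2 fold change between the groups without LPS + H-CDs replicate 1 (vertical axis) against that with all libraries (horizontal axis), 1 point per tested gene, with the line of equality. The 1326 genes called both ways (purple) lie along the line, and the 500 called with all libraries alone (orange) and 172 called without that library alone (green) sit mostly at smaller changes.

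**Figure D5:**
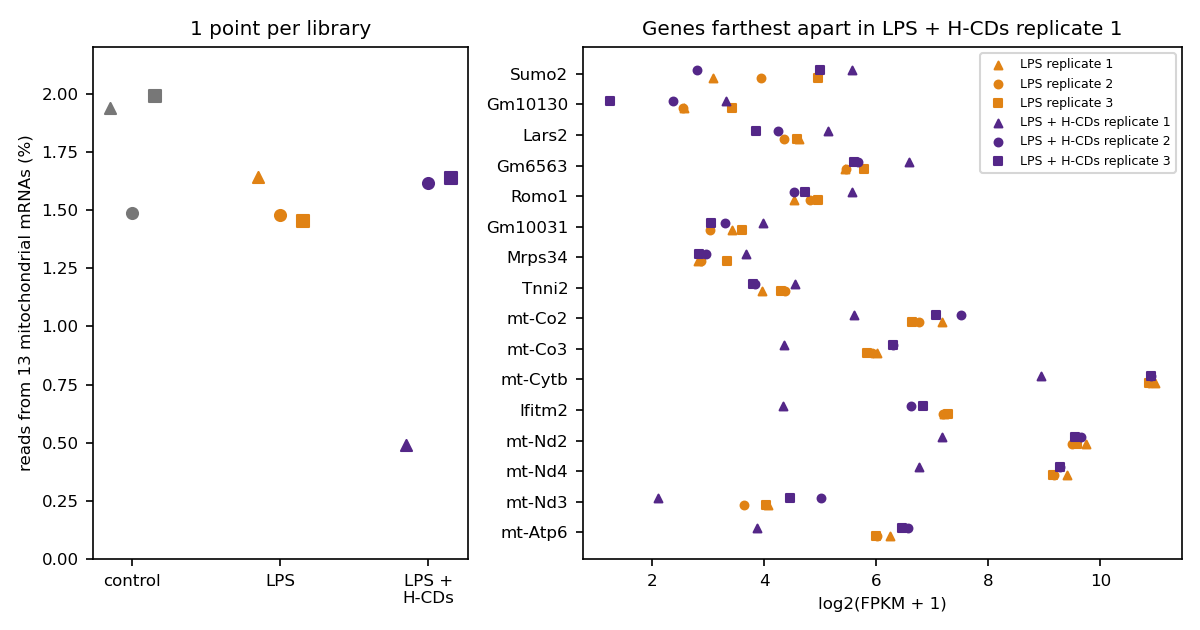
Left, percent of reads from the 13 mitochondrially encoded messenger RNAs, 1 point per library; LPS + H-CDs replicate 1 is at 0.49% and the other 8 libraries are between 1.452 and 1.988%. Right, log2(FPKM + 1) by library of the 8 genes highest and the 8 lowest in LPS + H-CDs replicate 1 (purple triangles) relative to replicates 2 and 3.

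Besides Sod1, the named genes that lost their call without LPS + H-CDs replicate 1 were Acod1, Aldoa, Ccnd3, Cdkn1a, Cenpe, Nr1d2 and Mir7026, with log2 fold changes between 0.26 (Aldoa, the more abundant of 2 genes with that symbol) and 0.50 (Nr1d2) among those higher, between -0.32 and -0.30 among those lower, and -1.67 for Mir7026. Among the genes described above with larger changes, Slc48a1 and Cat were lower in that library than in replicates 2 and 3, and without it their log2 fold changes were 3.0 and 1.67 against 2.85 and 1.52. With smaller changes, Hspa5, Nars and the proteasome subunit gene Psma5 were higher in that library, and without it stood at 0.40, 0.43 and 0.50 against 0.49, 0.52 and 0.60.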

How the data were processed

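Poly-A selected messenger RNA of RAW 264.7 cells was primed with random hexamers, per the labels' protocols. The authors deposited FPKM per gene and a comparison table of the LPS and H-CDs libraries. From its values, each deposited signal column is gene reads divided by 1 factor per library. Its fold change and p columns were not used, nor were 2 columns that equal the group means. The build was GRCm38 (mm10) per the submitters' processing notes; no source used here names the aligner or counter. The tables write CD for the H-CDs group.

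The product of FPKM and gene length came in whole steps (100% of values, tolerance 0.01), so whole reads were recovered for all 9 libraries, and the comparison table gave the same reads for its 6. Depth was 14377161 to 16069968 reads per library. Limits on counts of 0 use 3 counts and cover counting error only.

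Genes with at least 1 FPKM in 3 of 9 libraries were fitted in limma 3.58.1 (R 4.3.3) on log2(FPKM + 1) with an intensity trend and 6 residual degrees of freedom. A gene can pass this filter through the 3 libraries of 1 group alone, as Slc40a1 and the lectin gene Clec4n did through the H-CDs libraries. Tests were 2-sided, and p-values were adjusted by Benjamini-Hochberg over all 11707 genes. Every adjusted p in the text is limma's unless another tool is named. Such fold changes understate the change of genes near 0. Folds of single genes are ratios of mean FPKM, while counts of limma calls above or below a fold threshold use the fitted log2 scale. A single gene with 3 libraries against 3 cannot pass p = 0.1 in an exact permutation test, so calls rest on the spread shared over genes. Alternatives used edgeR 4.0.16 and DESeq2 1.42.0 on recovered reads, other scalings, filters and pseudocounts, library weights, a replicate block and leaving out each library. The fit was tested on simulated counts with known changes.

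Named genes were the 15 highest and 15 lowest fold changes (protein-coding, called, no overlap, at least 5 FPKM in the higher group), up to 3 per list by p, the 5 largest gains and losses, 3 noncoding genes per direction, the 8 genes at each end of LPS + H-CDs replicate 1's difference from its group, and genes with reads in 1 group. Further list members were named after their values were seen. The members and the 52 gene lists were chosen with earlier results of these data known, so list counts describe and carry no test. Promoters were matched by symbol for 8054 genes.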

Additional observations from a re-analysis of the deposited data

How the results depend on the processing

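Of the 158 named genes, 0 reversed sign in 2519 alternative values, and 98 values in 22 genes lost their call. Among them were Acod1, Aldoa, Ccnd3, Cdkn1a, Cenpe, Mki67, Mir7026, Nr1d2, Plau and Rps18 when some libraries were left out, and Actb, Fth1, Hspa5 and Spp1 with no filter on low values. The 158 genes were chosen because they were called, and each alternative refits the same libraries. Unchanged signs were therefore likely from the start and give no separate support. Leaving out 1 library in turn gave 446 to 669 genes higher and 576 to 984 lower, with 55 to 61 and 75 to 91 of them at least 2-fold. The counts were lowest without LPS replicate 2 (446 and 576), and they were 473 and 625 without LPS replicate 1 and 671 lower without LPS + H-CDs replicate 2; fewer samples lower the power of each such fit. A pseudocount of 0.1 gave 102 and 120 genes at least 2-fold higher and lower. Rescaled to TPM, 690 genes were lower and 86 at least 2-fold higher; scaled to total reads, 1194 were higher and 689 lower. Library weights, which gave LPS + H-CDs replicate 1 the lowest weight (0.346), called 1424 and 1928. At least 2-fold higher were 117 genes in edgeR and 114 in DESeq2. Without LPS + H-CDs replicate 1, edgeR called 1174 higher and 1369 lower, an alternative chosen after seeing the data. The cause of these differences was not tested. Whether replicate numbers pair the libraries could not be decided. Deviations of same-numbered libraries correlated at -0.121, -0.084 and -0.111, and those of differently numbered libraries at -0.013 to 0.105. Deviations within such small groups constrain each other, so these values do not show presence or absence of pairing. A replicate block gave 603 higher and 882 lower. At this depth calls were fewest among genes of low level, 7.69% of the lowest of 5 bins.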
